A study of Mus musculus with 21 samples.

Results

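The blood transcription factor genes described here are Tal1, Lmo2, Gata1, Gata2, Runx1, Cbfa2t3, Gfi1b, Spi1 and Ikzf1, 9 of the 21887 protein-coding genes in the RefSeq table of the mouse build GRCm38.p6 (mm10). They were put together with earlier results of these data known. Every peak that lay inside one of these genes or within 50 kb of it was collected by library and by score. Over the 8 ATAC-seq lists this gave 377 peaks, which merged where they overlapped by 1 bp or more into 74 of 51264 open regions. Over the 8 ChIP-seq lists it gave 6 peaks in 4 regions, and over the input list it gave 0 peaks.

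All groups came from a single line of mouse embryonic stem cells, A2lox-Sox7-Myc, made from E14Tg2a, in which doxycycline switches on a transgene for Myc-tagged Sox7. They were grown as embryoid bodies, floating aggregates in which mesoderm forms, and were collected at day 4, with or without 1 µg/ml doxycycline for the last 24 h. ATAC-seq, in which a transposase cuts accessible DNA, was done on sorted PDGFRα−FLK1+ cells (EPC, endothelial progenitors; 2 induced and 2 uninduced libraries) and on sorted PDGFRα+FLK1+ cells (CPC, cardiac progenitors; 2 induced and 2 uninduced). Anti-Myc ChIP-seq was done on unsorted cells, with 4 induced and 4 uninduced libraries and 1 input.

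These proteins act in the circuit that turns mesoderm into blood and the blood-forming endothelium, or in the blood lineages that follow. Tal1 binds DNA with an E-protein partner and is bridged by Lmo2 to a GATA factor. Gata2 is the GATA factor of early progenitors and Gata1 that of erythroid cells and megakaryocytes. Runx1 is needed for the endothelial-to-haematopoietic transition, Cbfa2t3 (Eto2) is a corepressor that joins Tal1 and GATA complexes, Gfi1b is a zinc finger repressor, Spi1 (PU.1) directs myeloid and lymphoid fates, and Ikzf1 (Ikaros) acts in lymphoid and other blood lineages. FLK1 marks the mesoderm from which both blood and endothelium arise.

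Promoter sequences are given for 6 starts that show the range of calls in this set, from open in all 8 lists through open in 4 EPC lists and 1 CPC list to open in none, so that the letters stand beside the calls. RefSeq (GRCm38.p6) held promoters, 250 bases before to 50 after a start, for 7 of the 9 genes. Capitals mark matches on either strand to 5 short motifs, which are AGATAA for GATA factors, CAGATG for the E-box that Tal1 dimers bind, AACAAT for SOX factors, AGGAAG for ETS factors and TGTGGT for RUNX factors. Each sequence reads 5′ to 3′ on the strand of the gene.
Tal1, upstream start, chr4:115056176-115056475, plus strand: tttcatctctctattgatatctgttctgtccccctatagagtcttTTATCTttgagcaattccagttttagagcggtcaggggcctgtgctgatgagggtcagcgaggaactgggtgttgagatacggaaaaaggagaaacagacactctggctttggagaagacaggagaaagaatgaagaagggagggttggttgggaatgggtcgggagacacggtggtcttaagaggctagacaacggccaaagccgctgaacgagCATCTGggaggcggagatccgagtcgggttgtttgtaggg
Cbfa2t3, upstream start, chr8:122699060-122699359, minus strand: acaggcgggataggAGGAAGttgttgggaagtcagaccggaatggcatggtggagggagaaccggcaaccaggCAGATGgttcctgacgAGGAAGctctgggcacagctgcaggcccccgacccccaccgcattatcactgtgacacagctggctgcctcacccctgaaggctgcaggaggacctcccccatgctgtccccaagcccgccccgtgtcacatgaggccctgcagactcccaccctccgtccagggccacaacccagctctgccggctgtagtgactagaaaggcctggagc
Gata2, downstream start, chr6:88198414-88198713, plus strand: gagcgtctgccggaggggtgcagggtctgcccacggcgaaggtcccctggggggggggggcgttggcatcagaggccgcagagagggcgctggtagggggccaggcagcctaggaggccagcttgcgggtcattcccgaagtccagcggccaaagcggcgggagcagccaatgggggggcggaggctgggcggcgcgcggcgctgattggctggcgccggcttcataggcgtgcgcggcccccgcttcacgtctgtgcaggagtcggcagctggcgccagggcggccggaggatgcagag
Gata1, chrX:7967861-7968160, minus strand: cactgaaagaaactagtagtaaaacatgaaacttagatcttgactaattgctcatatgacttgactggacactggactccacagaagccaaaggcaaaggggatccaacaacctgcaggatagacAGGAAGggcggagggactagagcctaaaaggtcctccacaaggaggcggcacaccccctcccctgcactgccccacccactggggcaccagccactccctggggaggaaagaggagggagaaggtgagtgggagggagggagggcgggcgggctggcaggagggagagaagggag
Runx1, upstream start, chr16:92826025-92826324, minus strand: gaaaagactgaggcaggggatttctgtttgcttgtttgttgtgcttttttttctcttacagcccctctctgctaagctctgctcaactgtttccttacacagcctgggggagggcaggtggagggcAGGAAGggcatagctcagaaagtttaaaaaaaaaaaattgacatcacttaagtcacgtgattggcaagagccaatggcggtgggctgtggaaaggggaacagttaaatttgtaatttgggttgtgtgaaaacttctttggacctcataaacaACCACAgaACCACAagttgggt
Runx1, downstream start, chr16:92697280-92697579, minus strand: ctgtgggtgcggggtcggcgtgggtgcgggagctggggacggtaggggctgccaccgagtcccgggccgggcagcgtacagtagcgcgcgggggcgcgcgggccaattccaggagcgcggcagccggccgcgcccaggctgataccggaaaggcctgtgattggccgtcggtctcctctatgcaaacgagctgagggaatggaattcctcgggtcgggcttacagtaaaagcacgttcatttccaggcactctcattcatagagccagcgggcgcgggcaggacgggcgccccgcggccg

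The Tal1 window held 1 GATA match and 1 E-box match and lay in a region open in all 8 ATAC lists. The Cbfa2t3 window held 1 E-box and 2 ETS matches and was open in 4 of 4 EPC lists and in 1 of 4 CPC lists. At Gata2 the downstream start held 0 matches and was open in 4 EPC and 3 CPC lists. The promoter at the upstream start of Gata2, not printed here (88193641 to 88193940), overlapped no ATAC region. The Gata1 window, with 1 ETS match, had no ATAC peak in any list. For Runx1 the upstream start, with 1 ETS and 2 RUNX matches, had no ATAC peak, whereas the downstream start, with 0 matches, was open in all 8 lists. Among all 32851 promoters of this length, 11.2% held the GATA match, 17.2% the E-box, 10.7% the SOX match, 35.4% the ETS match and 16.8% the RUNX match, so each match is a common one. A match describes the letters only.

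The ATAC lists held 28915 and 30732 peaks in induced EPC, 27934 and 23694 in uninduced EPC, 29291 and 27979 in induced CPC, and 27540 and 23068 in uninduced CPC. The lists hold no read counts, so depth is unknown, and a missing peak can reflect low depth or a closed site. In each cell type the induced lists were the longer ones. The genes of the sort markers did not separate the cell types by number of peaks, with 3 to 5 peaks in EPC and 2 to 4 in CPC for Kdr, which encodes FLK1, and with 1 to 3 in EPC and 2 to 3 in CPC for Pdgfra. The windows of 5 blood cell marker genes (Hbb-bh1, Hbb-y, Hba-x, Ptprc and Itga2b) held 20 to 24 peaks in EPC libraries and 9 to 16 in CPC libraries. The windows of Hbb-bh1 and Hbb-y overlap, so a peak in both is counted for each. The 5 endothelial marker genes held 15 to 22 in EPC and 8 to 18 in CPC, and the 4 cardiac marker genes 6 to 10 in EPC and 5 to 11 in CPC. Of the endothelial genes 3 had the higher mean in EPC and 2 in CPC, and of the cardiac genes 2 and 2. As the sorted cells were measured in bulk, a site open in a few cells of a library and a site weakly open in all of them cannot be told apart, and the part of a differing cell make-up in the results was not tested.

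The first comparison asked whether the blood genes had more open sites in EPC than in CPC. Summed over the 9 genes, induced EPC libraries had 53 and 59 peaks and uninduced EPC libraries 55 and 47, against 47 and 43 in induced CPC and 39 and 34 in uninduced CPC. EPC libraries averaged 53.5 ± 5.0 peaks and CPC libraries 40.75 ± 5.56 (SD, n = 4 each), and the groups met at 47 peaks. Relative to list length the groups did not overlap, with 1.83 to 1.98 peaks per 1000 in EPC and 1.42 to 1.60 in CPC.

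**Figure D1:**
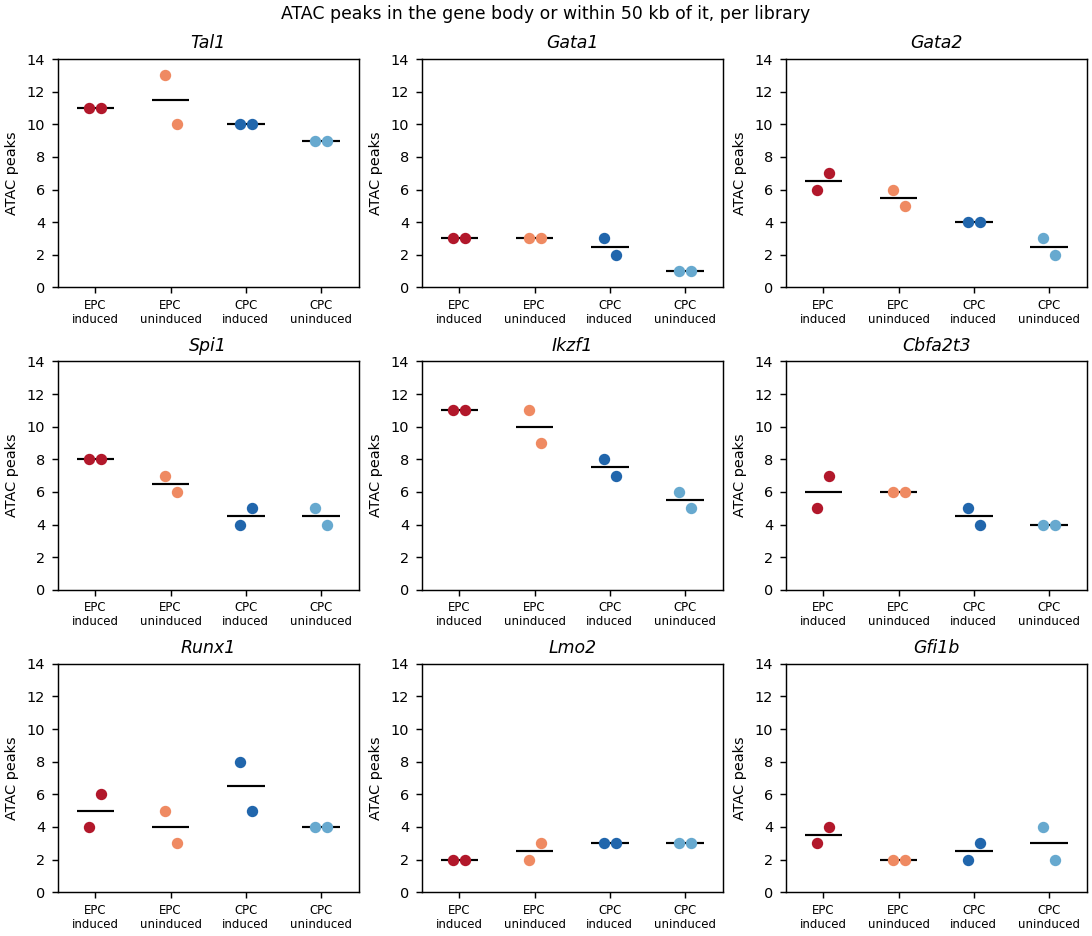
Number of ATAC peaks inside each blood transcription factor gene or within 50 kb of it, 1 point for each library, with the mean of each group of 2 as a bar; induced and uninduced EPC stand left of induced and uninduced CPC. Gata2, Spi1 and Ikzf1 have more peaks in every EPC than in every CPC library, while Tal1, Gata1, Cbfa2t3, Lmo2, Runx1 and Gfi1b do not.

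Among the genes, Gata2, Spi1 and Ikzf1 had more peaks in every EPC library than in every CPC library. Over all 19564 genes with a peak, 3.36% did so, and 1.7% had more in every CPC library, which none of the 9 did. Each of the 3 reached the smallest p that 4 against 4 libraries allow (two-sided exact permutation test, p = 0.0286) and none passed the Benjamini-Hochberg adjustment over all genes (adjusted p = 0.565). By that exact test 0 genes in the genome passed after adjustment and 989 (5.06%) had an unadjusted p under 0.05. Each cell type mixes induced and uninduced libraries. With the exact permutation kept within induction state, the smallest p possible is 0.0556. Gata2, Spi1 and Ikzf1 reached it, and so did Tal1. Separate cultures are not stated for the replicates, and these p-values measure only the spread between the libraries, which may be technical. The 9 genes were chosen with earlier results of these data known, so their counts describe the set and are no independent evidence.

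Taking the Tal1 complex first, Tal1 had 11 and 11 peaks in induced EPC and 13 and 10 in uninduced EPC, against 10 and 10 in induced CPC and 9 and 9 in uninduced CPC. The cell types touched at 10 peaks (EPC minus CPC 1.75, exact permutation p = 0.0857, adjusted p = 0.834). Lmo2, the bridging protein, had 2, 2, 2 and 3 peaks in EPC and 3 in each CPC library. It was one of only 2 genes of the set with the higher mean in CPC (difference −0.75, exact p = 0.143, adjusted p = 0.834), and within 10 kb of the gene the difference was 0.25.

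Among the GATA factors, Gata2 had 6 and 7 peaks in induced EPC and 6 and 5 in uninduced EPC, against 4 and 4 in induced CPC and 3 and 2 in uninduced CPC. The lowest EPC library lay above the highest CPC library, with means of 6.0 ± 0.82 in EPC and 3.25 ± 0.96 in CPC (SD, n = 4 each). Gata1 had 3 peaks in each EPC library, against 3 and 2 in induced CPC and 1 and 1 in uninduced CPC. Its groups met at 3 peaks (difference 1.25, exact p = 0.143, adjusted p = 0.834).

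Of Runx1 and the corepressors, Runx1 had 4 and 6 peaks in induced EPC and 5 and 3 in uninduced EPC, against 8 and 5 in induced CPC and 4 and 4 in uninduced CPC. The groups overlapped widely (difference −0.75, exact p = 0.714, adjusted p = 1), and without induced CPC replicate 1 the difference was 0.167. Cbfa2t3 had 5, 7, 6 and 6 peaks in EPC and 5, 4, 4 and 4 in CPC (difference 1.75, exact p = 0.0571, adjusted p = 0.834), with the groups meeting at 5. Gfi1b had 3, 4, 2 and 2 peaks in EPC and 2, 3, 4 and 2 in CPC, with equal means of 2.75.

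Of the genes for later lineage choice, Spi1 had 8 and 8 peaks in induced EPC and 7 and 6 in uninduced EPC, against 4 and 5 in induced CPC and 5 and 4 in uninduced CPC. Ikzf1 had 11 and 11 peaks in induced EPC and 11 and 9 in uninduced EPC, against 8 and 7 in induced CPC and 6 and 5 in uninduced CPC. Ikzf1 showed the largest difference of the 9 genes, with means of 10.5 ± 1.0 in EPC and 6.5 ± 1.29 in CPC (SD, n = 4 each). Neither gene had overlapping groups.

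Single regions showed which sites made up these differences. A region with a peak in all 4 EPC lists and in none of the 4 CPC lists is called EPC-only here, and the reverse CPC-only. EPC-only regions were 7 of the 74 blood gene regions (9.46%) and 2.1% of all ATAC regions, and CPC-only regions were 2 of 74 (2.7%) and 1.8% of all. The genes with an EPC-only region were Tal1, Gata1, Gata2, Spi1, Ikzf1 and Cbfa2t3, 6 of 9, against 8.48% of all genes. These 6 were already known to have one when the 9 genes were put together, so that count describes the set and is no independent evidence. The share of EPC-only regions rests on the same choice, and so do the numbers of peaks in the windows that hold them. Lmo2 and Runx1 had the CPC-only regions, 2 of 9 genes against 5.61% of all.

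The Gata2 EPC-only region lay inside the gene, 9.49 kb downstream of its upstream start (chromosome 6, 88202714 to 88204044), a distance like that of the intronic enhancer of mouse Gata2 known from blood stem cell emergence. Its scores were 151 and 166 in induced EPC and 451 and 137 in uninduced EPC, and no CPC list had a peak there. The score is the authors' own value for each peak, which MACS 1.4 writes as the log10 of the p-value multiplied by minus 10. As it moves with depth, scores are given to describe each list, and lists are compared only by the presence of a peak or, further on, by rank within a list. Whether the region is that enhancer was not tested.

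At Ikzf1 the EPC-only region lay inside the gene, 49.4 kb downstream of the upstream start (chromosome 11, 11734752 to 11735911). It scored 371 and 569 in the induced EPC lists and 108 and 75.0 in the uninduced ones. Near it, a region at 11728717 to 11729893 had a peak in all 4 EPC lists and in 1 CPC list, and a region at 11726610 to 11727618 had one in 3 EPC lists and no CPC list. The 3 regions thus formed a run of EPC sites within the gene, whose start region (11684712 to 11686718) was open in 3 EPC and all 4 CPC lists.

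Spi1 had 2 EPC-only regions. One lay 2.95 kb below the gene (chromosome 2, 91078336 to 91079420), with scores of 77.9 and 159 in induced EPC and 111 and 79.3 in uninduced EPC. The other lay inside the gene (91096336 to 91097432), with 58.4 and 65.0 in induced EPC and 147 and 61.5 in uninduced EPC. Between them, at the lower gene boundary, a region at 91082630 to 91083535 was called in 3 EPC lists and in no CPC list. The opposite held further inside the gene, where a region at 91101171 to 91101865 was called in 2 CPC lists and in no EPC list. Of the 8 scores in the 2 EPC-only regions 5 were under 80, where the lowest score kept was about 50, and the others reached 159.

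For Tal1 the EPC-only region covered the upper boundary of the gene, 15.4 kb from the upstream start (chromosome 4, 115071202 to 115072421), with scores of 76.8 and 95.6 in induced EPC and 179 and 117 in uninduced EPC. Upstream of the gene, a region 8.34 kb before the start had a peak in all 4 EPC lists and 1 CPC list, and a region 6.49 kb before it had one in 3 EPC lists and no CPC list. Gata1 had its EPC-only region inside the annotated gene, 3.57 kb upstream of the listed start (chromosome X, 7971063 to 7971906), scoring 76.5 and 103 in induced EPC and 99.9 and 56.1 in uninduced EPC. The Gata1 region lies where mouse Gata1 has a known upstream enhancer, an identity that was not tested.

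Cbfa2t3 had its EPC-only region 13.0 kb upstream of the upstream start (chromosome 8, 122711600 to 122712551), with scores of 105 and 70.4 in induced EPC and 92.9 and 83.4 in uninduced EPC. Its start region (122698761 to 122699968), which holds the promoter printed earlier, scored 264 and 259 in induced EPC and 506 and 242 in uninduced EPC. Of the CPC lists, uninduced replicate 2 alone had a peak there, with a score of 51.4. A start region of Cbfa2t3 was therefore called in all EPC libraries and in 1 CPC library near the lowest score kept.

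The CPC-only region of Runx1 lay inside the gene, 47.8 kb downstream of the upstream start (chromosome 16, 92777714 to 92778885). It scored 413 and 348 in induced CPC and 337 and 191 in uninduced CPC, well above the lowest score of the lists. Another Runx1 region, 3.66 kb downstream of the same start (92821782 to 92823048), was called in all 4 EPC lists and in 2 of 4 CPC lists. It scored 407 and 538 in induced EPC and 282 and 299 in uninduced EPC, and the CPC peaks, in induced replicate 2 and uninduced replicate 2, scored 56.9 and 52.7. Runx1 thus overlapped between the cell types in its number of peaks, while these regions differed in the lists that held them.

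Lmo2 had its CPC-only region 10.8 kb below the gene (chromosome 2, 103946083 to 103947126), with scores of 307 and 164 in induced CPC and 116 and 115 in uninduced CPC. The nearest other protein-coding gene was 45.4 kb away. The start sites of Lmo2 and Spi1 were not used here. Counted less strictly, regions in all 4 EPC lists and at most 1 CPC list were 10 of 74 (13.5%, against 3.27% of all ATAC regions), and the reverse were 2 of 74 (2.7%, against 2.79%). The 10 include the EPC-only regions, so the limit given for those holds here too. Regions in 3 EPC lists and no CPC list were 5 of 74 (6.76%, against 2.25% of all). The reverse, in 3 CPC lists and no EPC list, were 0 of 74 (2.1% of all).

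**Figure D2:**
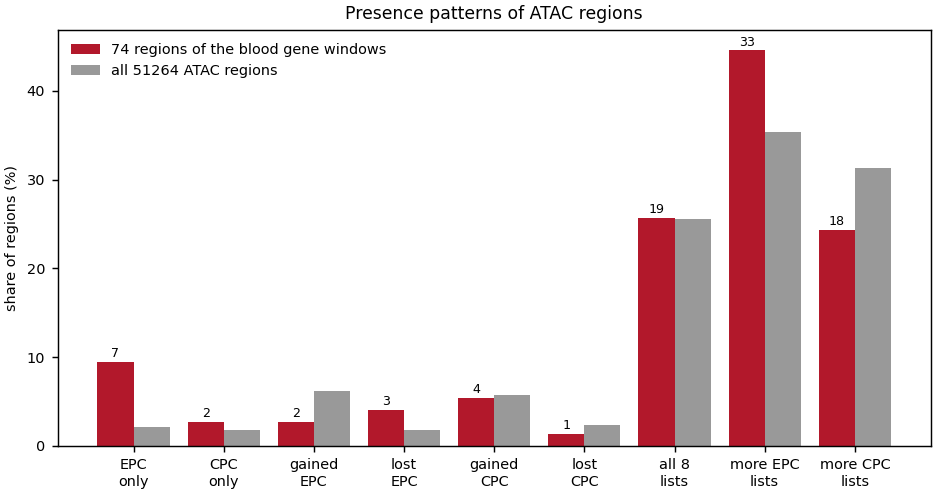
Share of regions in each class, in percent, for the 74 regions of the blood gene windows beside all 51264 ATAC regions; the number on each red bar counts blood gene regions. EPC-only regions take 9.46% of the blood gene regions and 2.1% of all, while the share open in all 8 lists is 25.7% and 25.5%.

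A further 19 regions (25.7%, against 25.5% of all) were open in all 8 lists, at 8 of the 9 genes (79.8% of all genes), and so allowed a comparison of rank within each list. The rank used is the percentile of the score among the 13096 regions that all 8 lists share, a measure chosen after the data were seen. In 9 of the 19, every EPC percentile lay above every CPC percentile, which 7.14% of all shared regions did. In 1 of the 19 the order was the reverse, which 7.57% of all shared regions did.

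Tal1 held 6 shared regions, of which 4 ranked higher in every EPC list. The start region (115055858 to 115058320), which covers both listed starts, scored 1143 and 1251 in induced EPC and 2131 and 919 in uninduced EPC, against 222 and 208 in induced CPC and 202 and 121 in uninduced CPC. In rank that was the 83.8 to 92.7 percentile in EPC lists and the 23.6 to 31.5 percentile in CPC lists. A region inside the gene, 6.85 kb downstream of the upstream start (115062028 to 115064526), ranked at 54.9 to 64.1 in EPC and 23.3 to 51.1 in CPC. Tal1 was open at its promoter in both cell types, and in CPC the site stood among the lower ranks of the sites they share.

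A Tal1 region centred 18.9 kb downstream of the upstream start (115074326 to 115076404), at the distance of a known enhancer of mouse Tal1 in blood progenitors and endothelium, ranked at 84.1 to 86.1 in EPC and 13.4 to 38.5 in CPC. The region 39.9 kb downstream (115094751 to 115097890), at the distance of the known erythroid enhancer of mouse Tal1, scored 3100 and 3100 in induced EPC and 3100 and 2981 in uninduced EPC, against 1328 and 1097 in induced CPC and 915 and 382 in uninduced CPC. It lay 0.857 kb from Pdzk1ip1, ranked at 98.1 to 98.9 in EPC and 71.9 to 90.0 in CPC, and was thus among the highest-ranked shared sites of every EPC list. A region 3.61 kb upstream of the start overlapped in rank, at 83.3 to 90.7 in EPC and 63.7 to 85.7 in CPC. Which of these sites are the known enhancers was not tested.

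Both shared Gata2 regions ranked higher in every EPC list. The region 3.15 kb upstream of the upstream start (88189191 to 88192299) stood at 51.6 to 69.1 in EPC and 22.2 to 41.5 in CPC. The one 32.9 kb downstream (88226120 to 88227423) stood at 65.5 to 83.1 in EPC and 6.39 to 61.6 in CPC, and it lies 2.86 kb from Dnajb8.

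At Cbfa2t3 a shared region 21.0 kb upstream of the start (122719212 to 122721095) scored 1048 and 1140 in induced EPC and 951 and 599 in uninduced EPC, against 119 and 124 in induced CPC and 241 and 201 in uninduced CPC. Its percentiles were 75.2 to 82.5 in EPC and 9.93 to 46.5 in CPC. Together with the start region and the EPC-only region, it made 3 neighbouring Cbfa2t3 sites that were called or ranked higher in EPC.

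The Runx1 region at the downstream start (92696493 to 92698244) ranked at 45.5 to 64.5 in EPC and 5.87 to 41.2 in CPC. The Lmo2 region inside the gene (103969028 to 103970782) ranked at 38.6 to 60.0 in EPC and 3.00 to 30.5 in CPC. Lmo2 therefore had fewer EPC peaks but a higher EPC rank at the one region inside its gene. For Spi1 and Gata1 the shared regions overlapped in rank and lay in neighbouring genes, Psmc3 and Slc39a13 near Spi1 and Hdac6 near Gata1.

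The region of reverse order lay 48.4 kb above Ikzf1 and inside Ddc, which encodes an amino acid decarboxylase (chromosome 11, 11821309 to 11823566), with percentiles of 37.6 to 80.1 in EPC and 87.9 to 90.8 in CPC. Gfi1b had no region in all 8 lists, and its listed start had no ATAC peak in any list. In all, 28 of the 74 regions lay inside a blood gene, 18 inside another gene and 28 in no gene, so the windows also hold sites of neighbouring genes.

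**Figure D3:**
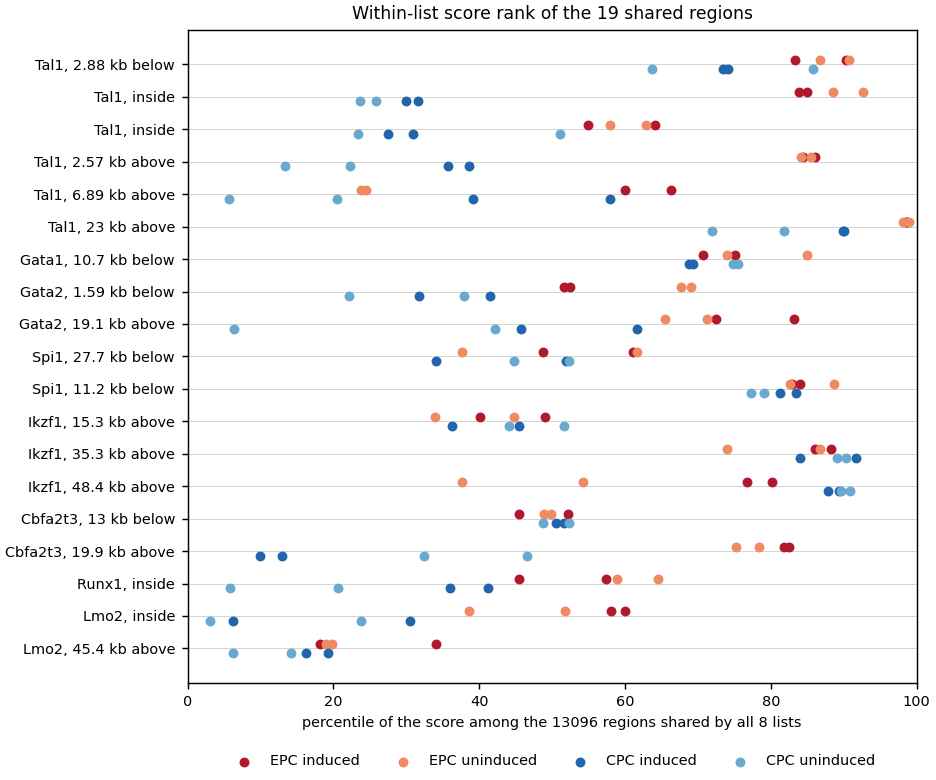
Percentile of the score, within each list, for the 19 regions of the blood gene windows that all 8 lists share; each point is 1 library, with EPC drawn above CPC. Regions are named by gene and as inside it or by the distance in kb below or above the gene body, not from the start. EPC points lie above all CPC points in the Tal1 rows inside the gene and 2.57 and 23.0 kb above it. The same holds for the Cbfa2t3 row 19.9 kb above, both Gata2 rows, and the Runx1 and Lmo2 rows inside the gene. The Ikzf1 row 48.4 kb above, inside Ddc, shows the reverse order.

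The second comparison asked what induction of Sox7 did to these sites in each cell type. In EPC the 9 genes had 56.0 ± 4.24 peaks with induction and 51.0 ± 5.66 without, and in CPC 45.0 ± 2.83 with induction and 36.5 ± 3.54 without (SD, n = 2 each). With lists cut to equal length, induction added 0 peaks in EPC and 1 in CPC, and the part of list length in the difference was not tested further. Per 1000 peaks of a list, EPC had 1.83 and 1.92 with induction and 1.97 and 1.98 without, a difference of −0.0999. CPC had 1.60 and 1.54 with induction and 1.42 and 1.47 without, a difference of 0.126. On that scale the induced and uninduced libraries did not overlap in either cell type, and the induced ones were lower in EPC and higher in CPC. With 2 against 2 libraries the smallest exact permutation p is 0.333, so no gene could pass.

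In EPC, Spi1 and Gfi1b had more peaks in both induced than in both uninduced libraries, 2 of 9 genes against 14.9% of all genes, and none had fewer (3.26% of all). In CPC, Tal1, Gata1, Gata2, Ikzf1 and Runx1 had more, 5 of 9 against 14.6% of all, and none had fewer (3.62% of all). With lists of equal length the CPC count was 1 of 9 and the background 8.61%, per 1000 peaks of the library it was 4 of 9 and 12.2%, and at scores of 100 or more it was 4 of 9 and 10.7%. Within a cell type, a region in both induced lists and in neither uninduced list is called gained, and lost where it was in both uninduced lists alone. Blood gene regions gained in EPC were 2 of 74 (2.7%, against 6.12% of all ATAC regions) and those gained in CPC 4 of 74 (5.41%, against 5.75%), near or below the background. By gene, 2 of 9 had a region gained in EPC (21.9% of all genes) and 4 of 9 one gained in CPC (20.7% of all genes).

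One region was gained in both cell types. It lay 6.72 kb below Gata1 and 3.39 kb from Hdac6, a histone deacetylase family gene (chromosome X, 7951438 to 7952545), and scored 72.5 and 121 in induced EPC and 305 and 296 in induced CPC. No uninduced list had a peak there. The authors' deposited tables of induced-only peaks list it for both cell types. Its presence followed induction in all 8 ATAC lists. The share of all ATAC regions gained in both cell types was not determined, so this single region has no background beside it.

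The other gained region of EPC was 25.7 kb below Gfi1b, inside Gtf3c5 (chromosome 2, 28582661 to 28583712), with scores of 156 and 103 in induced EPC, and it was also called in 3 CPC lists. The other regions gained in CPC were 35.3 kb above Gata2 (79.7 and 61.4 in induced CPC, and present in all 4 EPC lists), 6.58 kb below Cbfa2t3 (51.7 and 78.0) and inside Runx1 at 92718814 to 92719594 (77.4 and 121). The Cbfa2t3 one was also called in 1 EPC list, induced replicate 2 (56.4), and the Runx1 one in no EPC list. These scores ran from 51.7 to 156, where the lowest score kept was about 50.

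Lost regions were 3 of 74 in EPC (4.05%, against 1.82% of all) and 1 of 74 in CPC (1.35%, against 2.35%), at 3 of 9 genes in EPC (7.91% of all genes) and 1 of 9 in CPC (9.35% of all genes). In EPC they lay 13.5 kb above Tal1 (160 and 83.9 in uninduced EPC), inside Cbfa2t3 (120 and 94.8) and 16.4 kb above Gata1 (81.6 and 93.6). The Tal1 one was also called in 3 CPC lists, among them induced replicate 2 (98.5), and the Cbfa2t3 one in 1 CPC list, uninduced. The Gata1 one was in no CPC list. In CPC the lost region lay 5.92 kb below Gfi1b (84.5 and 90.7 in uninduced CPC), and it was also called in 1 EPC list, induced replicate 2 (63.3). The EPC-only and CPC-only regions described earlier were, by their definition, called with and without doxycycline.

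The third comparison asked whether the tagged Sox7 protein was found at these genes. The ChIP lists held 1511, 1851, 2807 and 1061 peaks in induced samples, 929, 1015, 1059 and 772 in uninduced samples, and 689 in the input. In the uninduced group, lists 2 and 4 had 585 peak starts in common, 75.8% of the shorter list, where no other pair passed 1.04%, so both together were taken as 1 library. Over the 9 genes the induced lists had 1, 1, 3 and 0 peaks and the uninduced lists 0, 0, 1 and 0.

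No region of the blood gene windows was found on induction, meaning in at least 3 of 4 induced and in 0 uninduced lists. Of all 4548 ChIP regions 5.17% were, and the windows held only 4, too few to set 0 apart from that share. Among the 5663 genes with a ChIP peak, which include only Ikzf1 and Runx1 of the 9, 7.26% had such a region. Of those 5663 genes, 0 passed the exact permutation test of induced against uninduced after adjustment, and 0 had an unadjusted p under 0.05, since the smallest p for 4 against 3 libraries is 0.0571. Neither Ikzf1 nor Runx1 had more ChIP peaks in every induced than in every uninduced library (2.51% of the 5663 genes) or fewer (0.0177%). Ikzf1 and Runx1 had a ChIP peak in some list, 2 of 9 genes against 25.9% of all, and Tal1, Lmo2, Gata1, Gata2, Cbfa2t3, Gfi1b and Spi1 had none in any list. At the unknown depth of these lists, binding there was not detected, which does not show that it is absent.

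Near Ikzf1 a ChIP region 49.3 kb above the gene, inside Ddc (chromosome 11, 11822237 to 11823314), was called in induced lists 1 and 3, with scores of 58.8 and 57.7, and in no uninduced list. It overlaps the shared ATAC region that ranked higher in CPC. The authors' deposited lists of 666 Sox7 sites and of 117 sites of Sox7 with Gata4 both include it, at 11822579 to 11823246.

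Runx1 had 3 ChIP regions, each in 1 induced list. The one 3.72 kb downstream of the upstream start (chromosome 16, 92821896 to 92822811) scored 69.6 in induced list 3 and overlaps the ATAC region open in 4 EPC and 2 CPC lists. One further inside the gene (92757655 to 92759077) scored 72.4 in induced list 2 and 61.0 in uninduced list 3. The last, 39.1 kb below the gene (92561645 to 92562366), scored 54.1 in induced list 3. Neither of these others overlapped an ATAC region, and none of the 3 recurred among the induced lists.

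Other lists were set beside the 9 genes. Of 19 other genes of blood formation, 3 had more peaks in every EPC than in every CPC library and 0 the reverse. Over all genes these shares were 3.36% and 1.7%. The 19 include the 5 blood cell marker genes given earlier. For the 19, the median difference (EPC minus CPC) was 1.25 peaks, against 1.75 for the 9 genes and 0.25 for all genes tested. The 3 were Zfpm1, the GATA cofactor Fog1, with 10, 14, 14 and 12 peaks in EPC and 7, 8, 7 and 6 in CPC, and the embryonic globin genes Hbb-bh1 (6, 5, 5 and 4 in EPC, 3, 1, 1 and 1 in CPC) and Hbb-y (5, 4, 4 and 4 in EPC, 3, 1, 1 and 1 in CPC), whose windows overlap. Of 7 endothelial ETS factor genes 1 had more in every EPC library, Fli1, with 8, 5, 10 and 4 in EPC and 2, 0, 0 and 0 in CPC, and the median was 2.25. Of 9 cardiac transcription factor genes 1 had more in every EPC library, Mef2c, 0 had more in every CPC library, and the median was −0.25. The difference between the lists was not tested.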

How the data were processed

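The deposited files were peak lists, 1 for each ATAC, ChIP and input library, with 4 further lists made by the authors from these. Each peak carries a score deposited by the authors' peak caller. Per the submitters' processing notes the build was GRCm38 (mm10), and Bowtie2, SAMtools, bedtools, MACS 1.4 and Trimmomatic were named without a role. Groups came from the sample characteristics; the growth protocol names a PDGFRα+FLK1− sort that differs from them. The 4 RNA-seq samples were not analysed here.

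Peaks overlapping a gene body or its 50 kb flanks by 1 bp or more were counted for every protein-coding gene. The number of ATAC peaks per library was compared between EPC and CPC with a two-sided exact permutation test, and ChIP peaks likewise between induced and uninduced lists, with Benjamini-Hochberg adjustment over all genes with a peak. The test was checked on simulated data. Merged regions were classed by the lists that hold them. Because the peak lists give no read counts, no interval of counting error is given, and the number of libraries limits precision. The members, regions and gene lists were chosen with earlier results of these data known. Regions were named if EPC-only, CPC-only, gained, lost, shared by all 8 lists or bound in ChIP; regions that just missed a class are also named and were chosen after their values were seen. Libraries were not paired by replicate number in the main comparisons, as given in the closing section. Other windows, overlaps, score filters, list lengths and left-out libraries were tried. Those for the rank measure and for the counts of genes on induction were added after the data were seen. Python 3.11.15, pandas 2.3.3, NumPy 2.4.6 and matplotlib 3.10.9 were used.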

Additional observations from a re-analysis of the deposited data

How the results depend on the processing

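The count of 3 genes with more ATAC peaks in every EPC library, the 6 genes with an EPC-only region and the higher EPC sum stayed within 1.5 times or within their spread under every window, overlap, score and list-length setting run. Over all 366 values recomputed, 314 counted as kept, 46 moved and 6 reversed. Of the 366, 126 were differences of single genes, which counted as kept unless their sign reversed, and 123 of them did. That rule is a loose one, as the Gata1 difference of 1.25 counted as kept at scores of 100 or more, where it was 0. Leaving out each library gave 3 to 5 genes for EPC above CPC (5 without induced CPC 1) and 0 to 1 for the reverse (1 without uninduced EPC 2), 7 to 10 EPC-only regions, 9 to 12 and 1 to 2 shared regions for the 2 rank orders, 10.5 to 14.9 peaks for the EPC minus CPC sum, 1 to 9 for induction in EPC and 6 to 11 in CPC, 4 to 10 and 4 to 6 regions gained and lost in EPC, 5 to 12 and 1 to 3 in CPC, 2 to 6 and 5 to 6 genes with more peaks on induction in EPC and CPC (6 in EPC without uninduced EPC 1), and 0 to 1 ChIP regions found on induction (1 without induced list 2 or 4). The Runx1 difference was −1.25 to 0.167, and turned positive without induced CPC 1. With a library left out, fewer lists are needed for a class, so classes grow by construction.

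With a 10 kb window, induction added 4 peaks in CPC, where 2 genes had more, the Lmo2 difference was 0.25, and CPC-only, shared, gained EPC and lost EPC regions numbered 1, 8, 1 and 1, with 0 ranked higher in CPC. With the gene body alone, induction added −1 peaks in EPC and 2 in CPC, 0 and 1 genes had more, the Lmo2 difference was 0.25, and CPC-only, shared, gained EPC, lost EPC, gained CPC and lost CPC regions numbered 1, 4, 0, 1, 1 and 0, with 4 ranked higher in EPC and 0 in CPC. Narrower windows hold fewer regions. At scores of 100 or more, gained EPC, lost EPC and lost CPC regions numbered 4, 1 and 0, and 1 gene had more peaks in induced EPC. With lists of equal length, induction added 0 peaks in EPC and 1 in CPC, 1 gene had more in each, gained CPC regions numbered 2, and the ChIP difference was −0.333 peaks, against 0.917. Per 1000 peaks, induction added −0.0999 in EPC and 0.126 in CPC. Otherwise the cause was not tested.

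Replicate deviations correlated at −0.00748 to 0.112 between groups, with the highest value for uninduced EPC with uninduced CPC. Libraries were therefore not paired in the main comparisons. Whether libraries of the same number shared a culture or a run was not tested. With the replicate block, 4 genes had more EPC peaks in every pair, and the sums differed by 12.75 between cell types, by 5 on induction in EPC and by 8.5 in CPC. Depth is unknown, and peaks near the lowest score kept are the most exposed to it.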

Other observations

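Outside the 9 windows, the genes whose number of ATAC peaks moved most like the summed number of the 9 genes over the 8 libraries were Rpia, Gm46345, Mgme1, Dlgap1 and C130074G19Rik, with Pearson correlations of 0.990, 0.982, 0.970, 0.969 and 0.966 among 16157 genes ranked. The libraries share cell type and list length, and the values are a description of these lists.

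Over all genes, 8.48% had an EPC-only region in their window and 5.61% a CPC-only one. Of the 19 other genes of blood formation, 4 had an EPC-only region, namely Itga2b, Ptprc, Hbb-bh1 and Hbb-y. A CPC-only region lay at 1 of the 19, Tcf3, which encodes the E-protein partner of Tal1. Among endothelial ETS factor genes Erg, Fli1, Ets1 and Etv6 had an EPC-only region and none had a CPC-only one. Among the 9 cardiac transcription factor genes 1 had an EPC-only region, Mef2c, and 2 had CPC-only ones, Tbx20 and Hand2.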
